A study of Mus musculus with 23 samples.

Results

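The 9 genes described here carry fluid and ions across the duct epithelium or take part in that transport: Slc12a2, Atp1b1, Fxyd3, Slc4a4, Car2, Cftr, Kcnn4, Aqp5 and Atp8a2. They are 9 of the 27207 genes in the count table, taken as the rows with these symbols, and all 9 passed the filter on low counts that left 11144 genes for testing. The genes were chosen by symbol with results of these libraries already known, and the comparison of day 13 with day 7 in collagen, the step from branch extension to lumen formation, is treated as the one that selected them. Their differences in that comparison are therefore given as a description with no test. The other comparisons were tested, but some of them share libraries with it, as said beside each.

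Duct cells of the pancreas secrete a fluid rich in bicarbonate. The sodium pump in the basolateral membrane keeps the sodium gradient, which loads chloride through the cotransporter NKCC1 and bicarbonate through NBCe1. Potassium channels keep the cell negative, the apical channel CFTR lets anions out into the lumen, and sodium and water follow, water partly through aquaporins. In cultured epithelia the same machinery can inflate a closed lumen.

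Bulk RNA sequencing covered 23 libraries of mouse pancreatic ductal adenocarcinoma (PDAC) cells in 6 conditions. KC cells came from a tumor of a mouse with Ptf1a Cre/+, in which Cre is made under the Ptf1a locus of the pancreas lineage, and KPC cells from a tumor of a mouse with Pdx1 Cre/+, another Cre driver of the pancreas. The conditions were KC cells on plastic (2D, n = 6), KC organoids in floating collagen gels at day 7 (n = 3) and at day 13 (n = 5), KC organoids in growth factor-reduced Matrigel at day 13 (n = 3), all of the first batch named in the labels, and KC (n = 3) and KPC (n = 3) organoids in collagen at day 13 of the second batch. All were kept in serum-containing medium, and organoids were freed with collagenase before lysis while 2D cells were lysed directly. By the labels all libraries of a genotype come from 1 mouse, so that genotype and mouse cannot be told apart, and p-values measure the spread between these libraries only. In bulk RNA, fewer cells that make a transcript and less transcript per cell cannot be told apart.

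Total counts ran from 1221451 to 2471058 per library. Levels are given as CPM, counts scaled to the library's size with edgeR's normalization factors. A count of 0 is compatible with up to 3 counts, which is worth 1.16 to 3.20 CPM depending on the library. The 2D libraries formed 2 sets: replicates 1 to 3 had totals of 1221451 to 1382736, normalization factors of 0.738 to 0.772 and 4.99% to 5.75% mitochondrial counts, against totals of 1649327 to 2091391, factors of 1.04 to 1.06 and 2.51% to 3.01% in replicates 4 to 6. Comparisons with 2D cells were also made without the first set. The first-batch collagen libraries of day 13 also formed 2 sets. Replicates 1 to 3 held 3.01% to 3.73% mitochondrial counts, and replicates 4 and 5 held 4.83% and 4.44%. Pairs of libraries from different sets differed by a chi-square per gene of 4.64 to 6.76, against 2.06 to 3.11 within a set. No fit left out either of these collagen sets as a whole. All 8 epithelial and duct markers (such as Epcam, Krt8 and Krt19) were detected in every condition, at a summed 7140 to 13900 CPM per library, mostly from keratins. Single markers differed: mean Epcam and Sox9 were lowest at day 7 (5.83 and 87 CPM). Krt8 and Krt18 were highest there (2970 and 3770 CPM), and the other markers were at neither end. Summed markers of other cells stayed at 178 CPM or less for fibroblasts, 36 CPM or less for immune cells, 21.3 CPM or less for acinar cells and 1.99 CPM or less for endothelial cells, and the single endocrine marker in the table, Ins1, was at 0. Summed immune markers were higher in Matrigel (30.1 to 36 CPM) than in first-batch collagen at day 13 (12 to 21.4 CPM). This sum was almost wholly Cd68, with means of 32.7 and 16.2 CPM. Ptprc was at 0.52 and 0.28 CPM, and 2 of the 4 markers were at 0 in both. The part of these markers in the differences below was not tested.

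In the GENCODE M21 annotation of GRCm38, Car2 lies at chr3:14886273-14900770, Cftr at chr6:18170687-18322768, Atp1b1 at chr1:164437109-164458355 and Fxyd3 at chr7:31068172-31076704. Kcnn4 lies at chr7:24370263-24386690, Aqp5 at chr15:99590782-99594829, Slc4a4 at chr5:88886818-89239653 and Atp8a2 at chr14:59638540-60197179. All 9 members are protein coding. Exons of 4 members overlap those of another gene: Atp1b1 and Nme7, Fxyd3 and Lgi4, and Cftr and Gm15592 lie on opposite strands, while Atp8a2 overlaps Nupl1 on its own strand and the noncoding Gm19716 and 4930563I02Rik on the other. Whether the counting used strand is not given in the sources used here. Without strand the reads of such partners could not be told apart, and strand does not separate those of Atp8a2 and Nupl1. Lgi4 (0 to 6 counts per library), Nupl1 (0 to 2 counts) and Gm19716 (0 in every library) held almost no counts, and Nme7 held 23.1 to 31.7 CPM at day 7 and 30.4 to 41.9 CPM at day 13 in first-batch collagen.

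Promoter sequences of 6 members were matched by symbol in RefSeq (build GRCm38.p6), and Car2, Atp8a2 and Slc12a2 had no entry. The 250 bases before the start site are shown, 5' to 3' on the strand of the gene, for Atp1b1 and Fxyd3, whose levels were both lowest at day 7, for Kcnn4, whose level was highest there, and for Cftr, the channel at the centre of the pathway. Capitals mark matches on either strand to GGGCGG (the Sp1 GC box) and CCAAT.
Atp1b1 (chr1:164458356-164458605, minus strand): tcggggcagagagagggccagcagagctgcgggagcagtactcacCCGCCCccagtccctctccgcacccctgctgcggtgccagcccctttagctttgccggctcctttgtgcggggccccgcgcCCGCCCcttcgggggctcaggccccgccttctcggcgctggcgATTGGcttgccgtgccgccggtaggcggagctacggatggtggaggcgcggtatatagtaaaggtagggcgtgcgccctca
Fxyd3 (chr7:31076698-31076947, minus strand): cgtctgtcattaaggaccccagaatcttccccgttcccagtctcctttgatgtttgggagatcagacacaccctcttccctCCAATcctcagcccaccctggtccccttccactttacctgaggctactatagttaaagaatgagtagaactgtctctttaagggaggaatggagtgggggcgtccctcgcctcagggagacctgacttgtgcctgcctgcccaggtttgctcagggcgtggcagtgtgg
Kcnn4 (chr7:24370013-24370262, plus strand): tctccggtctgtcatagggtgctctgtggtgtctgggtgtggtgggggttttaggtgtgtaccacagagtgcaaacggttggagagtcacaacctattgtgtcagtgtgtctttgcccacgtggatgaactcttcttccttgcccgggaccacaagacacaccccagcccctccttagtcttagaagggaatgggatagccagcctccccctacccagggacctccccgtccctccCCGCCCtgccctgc
Cftr (chr6:18170437-18170686, plus strand): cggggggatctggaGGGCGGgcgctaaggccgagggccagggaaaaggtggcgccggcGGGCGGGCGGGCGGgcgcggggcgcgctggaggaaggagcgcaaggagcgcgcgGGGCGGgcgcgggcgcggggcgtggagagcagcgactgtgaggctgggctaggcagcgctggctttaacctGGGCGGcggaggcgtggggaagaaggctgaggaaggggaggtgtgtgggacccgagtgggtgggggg

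Over both strands, 6 motifs were searched in these windows and in all 32851 RefSeq promoters cut to the same length. GGGCGG occurred in 32.7% of all promoters, at 6 places in Cftr (3 of them overlapping end to end), at 2 in Atp1b1 and Aqp5, at 1 in Kcnn4 and in the upstream promoter of Slc4a4, and at none in Fxyd3. CCAAT (33.8% of all) was found once each in Atp1b1, Fxyd3 and the downstream promoter of Slc4a4, which also held CACCTG (17.2% of all), an E-box. TATAAA (12.4%), TGACG (17.8%) and TGACGTCA (1.55%), the last the cAMP response element that contains the one before it, were in no member's window. The share of G and C was 76.4% in Cftr, 78.4% in Aqp5, 82.0% and 48.8% in the upstream and downstream promoters of Slc4a4, 70.4% in Atp1b1, 58.8% in Kcnn4 and 55.2% in Fxyd3, against a median of 52.4%. Atp1b1 and Fxyd3, both lowest at day 7 but unlike in the order of the other conditions, shared 1 CCAAT match but neither base composition nor GC boxes.

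Between day 7 and day 13 in first-batch collagen the members differed in both directions. Car2, Atp1b1, Fxyd3 and Atp8a2 were higher at day 13 without overlap between the libraries, Slc12a2 and Kcnn4 were lower without overlap, and Cftr, Slc4a4 and Aqp5 overlapped. As these libraries selected the members, the values describe the choice. Of all 11144 genes tested, edgeR called 55.1% here, 27.1% higher and 28.1% lower at day 13, and nothing is read from the members' counts against that share. Just inside the line between separate and overlapping groups lay Kcnn4, with a lowest value of 348 CPM at day 7 and a highest of 334 CPM at day 13, and just outside it lay Cftr, with 7.20 CPM as the highest at day 7 and 6.68 CPM as the lowest at day 13.

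**Figure D1:**
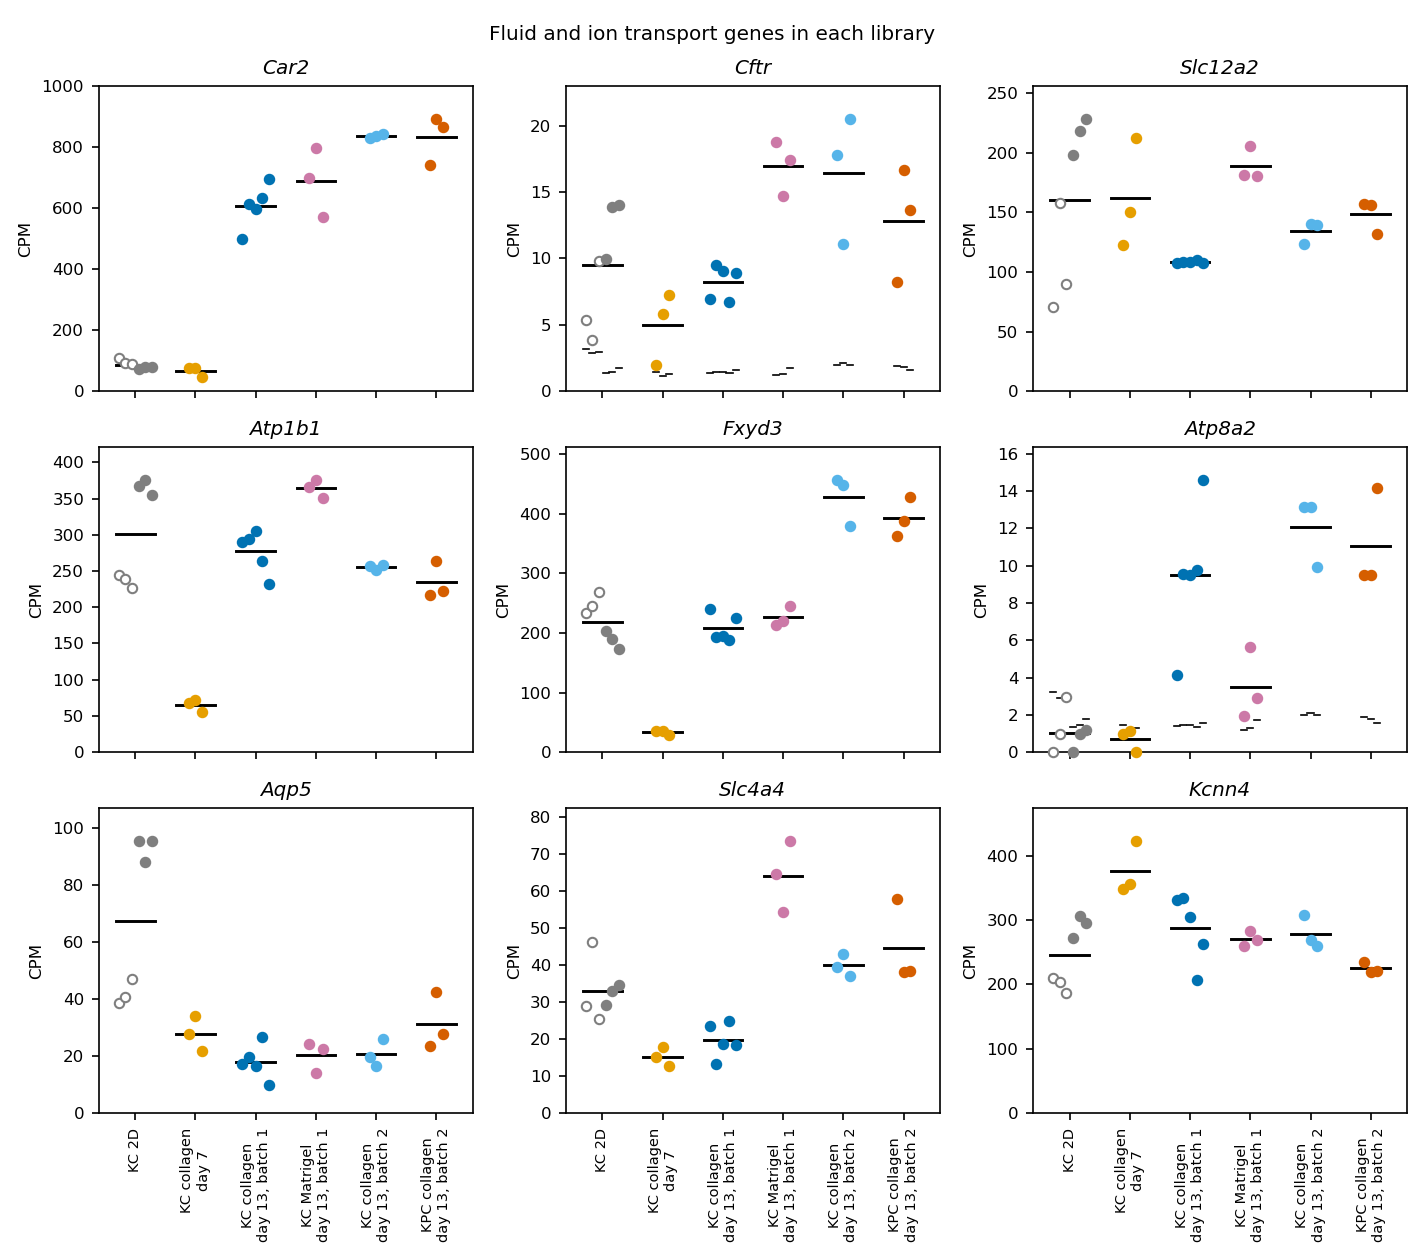
Level of each of the 9 genes in CPM (linear axes from 0) in every library of the 6 conditions; each point is 1 library, thick lines are group means, open points are 2D replicates 1 to 3, and the short lines in the Cftr and Atp8a2 panels mark 3 counts in each library. Car2 was high in all 14 day 13 libraries, Atp1b1 and Fxyd3 were low in the 3 day 7 libraries alone, and Atp8a2 stayed at or under 3 counts in 2D and at day 7.

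The pump in the basolateral membrane drives the transport, and Atp1b1 encodes its beta 1 subunit, which the pump needs to reach the membrane. Atp1b1 stood at 68.2, 71.2 and 54.7 CPM in the 3 day 7 libraries and at 290, 295, 306, 264 and 232 CPM in the 5 first-batch collagen libraries of day 13, a log2 fold change of 2.10. In 2D cells it ranged from 226 to 376 CPM with a median of 300 CPM. The 14 day 13 libraries of all groups lay between 217 and 376 CPM, above every day 7 library, and so did all 6 libraries of 2D cells, so that day 7 was the low point. Matrigel libraries (366, 376 and 351 CPM) lay above all first-batch collagen libraries, and second-batch KC collagen lay at 257, 252 and 258 CPM within the range of the first batch.

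Fxyd3 encodes a small membrane protein of the FXYD family, which binds the pump and alters its activity. Like Atp1b1 it was lowest at day 7, but the order of the other conditions differed, with the second batch highest for Fxyd3. Fxyd3 stood at 35.1, 35.8 and 28.8 CPM at day 7 and at 240, 194, 195, 188 and 226 CPM at day 13 in first-batch collagen, a log2 fold change of 2.65. In 2D cells it ranged from 174 to 269 CPM (median 219 CPM), and in Matrigel it was 214, 220 and 246 CPM. These 3 conditions overlapped one another and lay above every day 7 library. The second batch stood apart, at 380 to 457 CPM in KC and 364 to 428 CPM in KPC, with no overlap with any library of the first batch.

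Slc12a2, on chromosome 18, encodes NKCC1, the Na-K-Cl cotransporter that loads chloride across the basolateral membrane, and its level at day 13 in first-batch collagen was low and tight: 107, 109, 108, 110 and 108 CPM. At day 7 it was 123, 151 and 213 CPM, so that the day 13 libraries lay lower without overlap (log2 fold change -0.58). Matrigel libraries held 182, 206 and 181 CPM and second-batch KC collagen 123, 141 and 139 CPM, both above first-batch collagen. In 2D cells the gene ran from 70.5 to 229 CPM with a median of 178 CPM, and replicates 1 to 3 (70.5 to 158 CPM) lay below replicates 4 to 6 (198 to 229 CPM).

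Slc4a4 encodes NBCe1, the sodium bicarbonate cotransporter that brings bicarbonate into the duct cell. It was at 15.1, 17.7 and 12.7 CPM at day 7 and at 23.5, 13.3, 18.6, 24.9 and 18.3 CPM at day 13 in first-batch collagen, and these ranges overlapped. Matrigel libraries held 64.5, 54.2 and 73.6 CPM. In 2D cells the range was 25.5 to 46.3 CPM with a median of 31.0 CPM, and second-batch libraries held 37.1 to 43.0 CPM in KC and 38.1 to 57.8 CPM in KPC. First-batch collagen of day 7 and day 13 thus lay below all other conditions, with no overlap with any of them.

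Car2 encodes a cytosolic carbonic anhydrase, the enzyme that makes bicarbonate from carbon dioxide and water. It was at 74.1, 75.1 and 46.6 CPM at day 7 and at 498, 614, 597, 634 and 696 CPM at day 13 in first-batch collagen, a 9.30-fold difference (log2 3.22). The 14 day 13 libraries ran from 498 to 894 CPM with a median of 721 CPM, above every 2D library (72.6 to 108 CPM, median 84.9 CPM) and every day 7 library. Car2 therefore differed from Atp1b1 and Fxyd3 in 2D cells, where it stood close to the level of day 7 and overlapped with it. Among the 4 groups of day 13 the second batch was highest, at 829.4 to 842.6 CPM in KC.

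Cftr, the apical chloride and bicarbonate channel that cAMP opens, gave few counts in all conditions. Day 7 libraries held 4, 15 and 17 counts (1.95, 5.78 and 7.20 CPM), and first-batch collagen libraries of day 13 held 15, 20, 19, 15 and 17 counts (6.91, 9.53, 9.04, 6.68 and 8.88 CPM). These ranges overlapped. Of the 14 day 13 libraries of all groups, 12 lay above every day 7 library, among them all of Matrigel, second-batch KC and KPC. Matrigel libraries held 48, 34 and 30 counts (18.8, 14.7 and 17.4 CPM) and second-batch KC collagen held 27, 16 and 31 counts (17.8, 11.1 and 20.5 CPM). In 2D cells Cftr ran from 3.86 to 14.05 CPM with a median of 9.89 CPM, replicates 1 to 3 below replicates 4 to 6. Cftr was thus above the limit of 3 counts in every library, but 1 day 7 library (4 counts) and 2 libraries of 2D cells (4 and 5 counts) lay next to it.

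Kcnn4 encodes a calcium-activated potassium channel whose current holds the membrane potential that drives anions out. It was at 348, 356 and 423 CPM at day 7 and at 331, 334, 304, 206 and 262 CPM at day 13 in first-batch collagen (log2 fold change -0.39). All 14 day 13 libraries, at 206 to 334 CPM, lay below every day 7 library, and so did the 2D cells at 186 to 306 CPM (median 241 CPM). KPC libraries (235, 219 and 220 CPM) lay below the KC libraries of their batch (308, 268 and 260 CPM).

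Aqp5, a water channel of the apical membrane in secretory epithelia, was lower in organoids than in 2D cells. In 2D cells it ran from 38.4 to 95.4 CPM with a median of 67.4 CPM, at 38.4 to 47.0 CPM in replicates 1 to 3 and 87.8 to 95.4 CPM in replicates 4 to 6. Day 7 libraries held 27.8, 33.9 and 21.6 CPM and first-batch collagen libraries of day 13 held 17.1, 19.5, 16.7, 26.7 and 9.92 CPM, with overlap. Of the 14 day 13 libraries, 13 lay below every 2D library, the exception being 1 KPC library at 42.2 CPM.

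Atp8a2 is not an ion transporter. It encodes a P4-ATPase, a pump that moves phospholipids between the leaflets of the membrane, and it lay near the detection limit. At day 7 it gave 2, 3 and 0 counts, and in 2D cells 0 to 3 counts per library, all at or under the limit of 3 counts. First-batch collagen libraries of day 13 held 9, 20, 20, 22 and 28 counts (4.15, 9.53, 9.51, 9.79 and 14.6 CPM), at least 7.35-fold above the mean limit at day 7. Matrigel libraries held 5, 13 and 5 counts (1.955, 5.63 and 2.90 CPM), and second-batch libraries held 15 to 20 counts in KC and 15 to 27 in KPC. Differences of Atp8a2 between conditions of day 13 rest on these few molecules.

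The 6 group means of each gene were put in order, which makes neighbours close. Of 45 neighbouring pairs (5 for each of 9 genes), 7 did not overlap, and 7 to 10 with each library left out. They were the step from first-batch collagen of day 13 down to 2D cells for Car2, from second-batch down to first-batch collagen for Slc12a2, from KPC down to day 7 for Atp1b1, from KPC down to Matrigel and from first-batch collagen down to day 7 for Fxyd3, from 2D cells down to first-batch collagen for Slc4a4, and from day 7 down to first-batch collagen for Kcnn4. Cftr, Atp8a2 and Aqp5 had no such step. The steps between first-batch collagen of day 13 and day 7, for Fxyd3 and Kcnn4, belong to the selecting comparison. The same share over all genes was not computed, so nothing particular to the members is read from the count. Over the 23 libraries, which share their conditions and batches, Pearson's r of log2 CPM between members was highest for Car2 with Atp8a2 (0.89) and Atp1b1 with Fxyd3 (0.79), and lowest for Car2 with Aqp5 (-0.65) and Fxyd3 with Kcnn4 (-0.64).

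The genes of the whole table with the pattern most like each member were found by the same measure over the 23 libraries. For Car2 they were Gpa33 (r = 0.98), Phgr1 and the sodium-proton exchanger gene Slc9a4, all at 0.97 or more. For Atp1b1 they were Muc1 (0.94), Klhl24 and Grb7, for Fxyd3 Fgfbp1 (0.93) and Elmo3, and for Atp8a2 Ndrg4 (0.95), Tm6sf2 and Gkn2. The other members had less similar partners: Kcnn4 had Actr1a (0.86), Rnf126 and Gsr, Cftr had Cdon (0.84), Mfsd4a and Ninl, Aqp5 had Pir (0.82), Mvd and Tpst1, Slc4a4 had Pik3c2a (0.82), Dock4 and St14, and Slc12a2 had Igf1r (0.77), Epn2 and Rbfox2. These are descriptions of libraries that share conditions, batch and depth.

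The matrix was compared in KC organoids of day 13, first batch, between Matrigel, in which the cells form closed spheres, and floating collagen, in which they form branched tubes. Slc4a4, Cftr and Slc12a2 were higher in Matrigel, Slc4a4 3.22-fold (log2 1.69, SE 0.18, edgeR adjusted p = 3.11e-07), Cftr 2.07-fold (log2 1.05, SE 0.29, adjusted p = 0.022) and Slc12a2 1.75-fold (log2 0.81, SE 0.24, adjusted p = 0.0298). None of these overlapped between the 3 Matrigel and 5 collagen libraries. Atp8a2 was called lower in Matrigel (log2 -1.42, SE 0.43, adjusted p = 0.0354), with overlap, but it passed the filter on low counts only through the collagen libraries of day 13, where it was high, so that its call is no support. Atp1b1 was 1.31-fold higher without overlap but missed the threshold (log2 0.39, SE 0.15, adjusted p = 0.106), which it passed with DESeq2 (adjusted p = 0.0594), with DESeq2's size factors (0.0764), with only these 2 groups (0.00751) and without collagen replicate 3 (0.0869), and Car2, Fxyd3, Aqp5 and Kcnn4 overlapped, with adjusted p from 0.534 to 0.862. So 4 of 9 members were called, 3 higher and 1 lower, beside 12.9% of all tested genes (6.62% higher and 6.29% lower, or 652 and 307 genes with library size alone), and the members' median log2 fold change was 0.18 beside -0.01 over all genes.

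The 5 collagen libraries are also those of the selecting comparison, so that this comparison is not independent of the choice. Without Matrigel replicate 1 only 2 of the 4 calls were left, with Cftr at 0.95 (adjusted p = 0.119) and Atp8a2 at -1.09 (adjusted p = 0.231). Slc12a2 was lost without Matrigel replicate 2 (0.74, adjusted p = 0.114), and Atp8a2 also without Matrigel replicate 3 or collagen replicate 5. With all 8 collagen libraries of both batches, Cftr fell under the threshold (0.63, adjusted p = 0.257), as second-batch collagen overlapped with Matrigel, and Atp1b1 passed it (0.44, adjusted p = 0.0604).

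**Figure D2:**
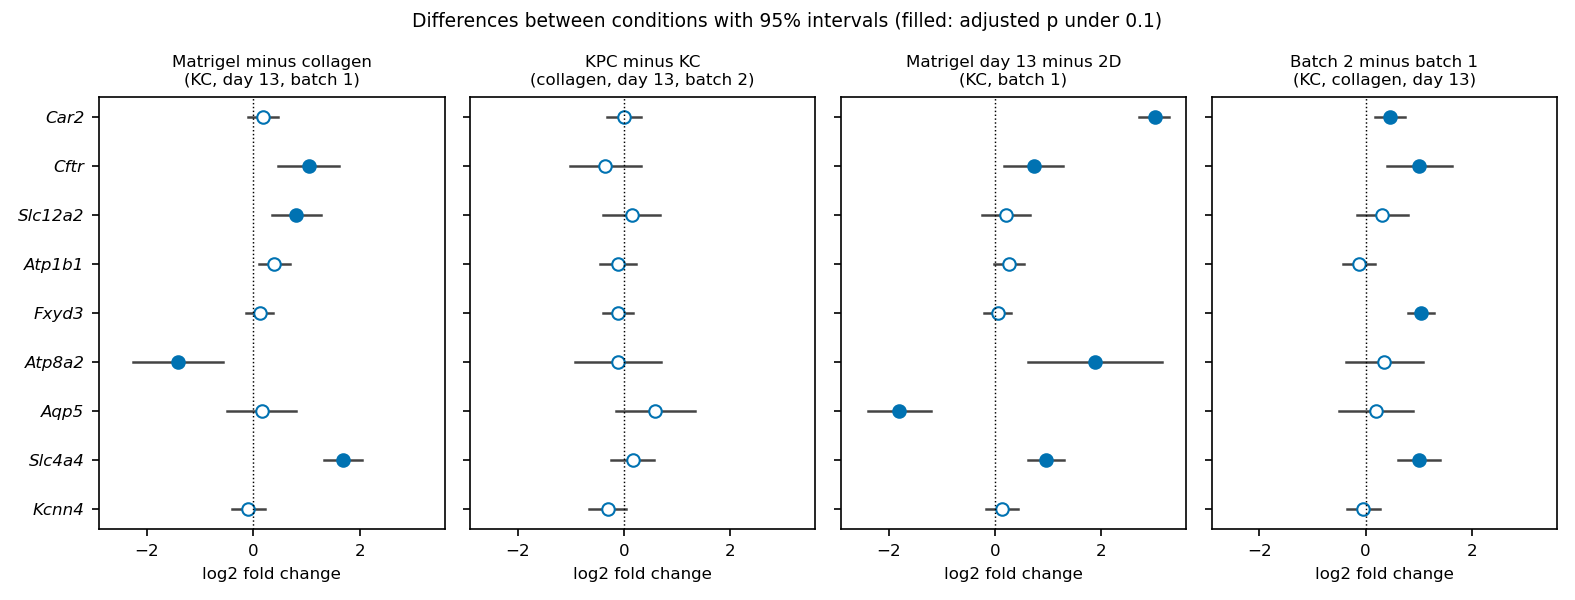
Log2 fold change (x axis) of each of the 9 genes in the 4 tested comparisons, with bars for the 95% interval of the edgeR fit; filled points have an adjusted p under 0.1. The number of filled points is 4 for Matrigel minus collagen, 0 for KPC minus KC, 5 for Matrigel minus 2D and 4 for the second minus the first batch.

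The batches were compared in KC collagen organoids of day 13, from the same mouse and in the same matrix, and 4 of 9 members were called, all higher in the second batch. The 5 first-batch libraries are again those of the selecting comparison, so that these calls are not independent of the choice. The libraries also differed in quality measures, with totals of 1526771 to 1573866 and 5.59% to 6.18% mitochondrial counts in the second batch against 1844157 to 2097989 and 3.01% to 4.83% in the first, both without overlap, and their part in the differences was not tested. Fxyd3 was 2.05-fold higher (log2 1.04, SE 0.13, edgeR adjusted p = 1.08e-06), Slc4a4 2.01-fold (log2 1.01, SE 0.20, adjusted p = 3.67e-04), Cftr 2.01-fold (log2 1.01, SE 0.31, adjusted p = 0.0163) and Car2 1.38-fold (log2 0.46, SE 0.14, adjusted p = 0.0172). The share of all tested genes called was 37.3%, 19.3% higher and 18.1% lower (1418 and 2597 genes with library size alone), and the median of the members was 0.35 beside -0.045 over all genes. Slc12a2 was separate without being called (log2 0.31, adjusted p = 0.363), and the other 4 members overlapped. Slc4a4 in Matrigel (54.2 to 73.6 CPM) and Slc12a2 in Matrigel (181 to 206 CPM) lay above all 8 collagen libraries of both batches, and Cftr did not. Without second-batch replicate 3 the call of Cftr was lost (0.83, adjusted p = 0.11).

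KPC cells were compared with KC cells in collagen at day 13 of the second batch, in libraries that had no part in the selecting comparison. None of the 9 members was called, by edgeR or by DESeq2, and none had an unadjusted edgeR p under 0.05, while 19.9% of all tested genes were called, 9.57% higher and 10.4% lower in KPC (1252 higher and 601 lower with library size alone). Car2 was at 743, 894 and 867 CPM in KPC and at 829.4, 837.5 and 842.6 CPM in KC, and the 95% interval of its log2 difference ran from -0.32 to 0.32. The intervals of the other members reached from -0.46 to 0.22 for Atp1b1, from -0.40 to 0.16 for Fxyd3, from -0.39 to 0.68 for Slc12a2 and from -0.25 to 0.57 for Slc4a4. They were wider for the members with few counts: -1.02 to 0.31 for Cftr, -0.92 to 0.69 for Atp8a2 and -0.16 to 1.33 for Aqp5. Changes of 2-fold or more were therefore within the interval of Cftr and Aqp5 only.

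Kcnn4 was the single member without overlap between KPC and KC, 1.24-fold lower in KPC (log2 -0.31, SE 0.18, edgeR adjusted p = 0.279). A fit of these 6 libraries alone called it (adjusted p = 0.0143) together with Aqp5 (log2 0.58, adjusted p = 0.0555), and KPC against all 8 KC collagen libraries called Aqp5 (0.71, adjusted p = 0.0956) and Slc4a4 (0.74, adjusted p = 0.0412) and left out Kcnn4.

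Matrigel organoids of day 13 were compared with 2D cells, which involves no collagen library. Car2 was 8.02-fold higher in Matrigel (log2 3.00, SE 0.14, edgeR adjusted p = 8.57e-14), Slc4a4 1.95-fold higher (log2 0.96, SE 0.17, adjusted p = 1.77e-04) and Cftr 1.66-fold higher (log2 0.73, SE 0.29, adjusted p = 0.05), each without overlap. Atp8a2 was called higher too (edgeR adjusted p = 0.0257), with overlap. Its Matrigel mean was 1.54-fold the mean limit of 3 counts in 2D cells. As it passed the filter on low counts only through the collagen libraries of day 13, its call is no support. Aqp5 was 3.48-fold lower (log2 -1.80, SE 0.30, adjusted p = 9.55e-05) without overlap. Slc12a2, Atp1b1, Fxyd3 and Kcnn4 were not called (adjusted p from 0.165 to 0.78), although with library size alone 7 members were, with Atp1b1 (adjusted p = 0.0663) and Fxyd3 (0.015) added. Atp1b1 was also called without 2D replicate 4, 5 or 6 (adjusted p from 0.0448 to 0.0784). The 5 calls, that of Atp8a2 included, were 4 higher and 1 lower. They stand beside 42% of all tested genes, 20% higher and 21.9% lower (3472 and 1072 genes with library size alone). The median log2 fold change was 0.27 over the members and -0.02 over all genes.

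The split of the 2D libraries touched several of these values. Slc12a2, Atp1b1, Cftr, Kcnn4 and Aqp5 were lower and Car2 and Fxyd3 higher in replicates 1 to 3 than in replicates 4 to 6, without overlap. The share of all genes without overlap between these sets was not computed, so nothing particular to the members is read from this. Without replicates 1 to 3, an alternative chosen after seeing the data, Cftr lost its call (log2 0.47, adjusted p = 0.186) and Fxyd3 gained one (0.29, adjusted p = 0.0438), and Atp1b1 was at 0.03 (adjusted p = 0.874). Car2 (log2 3.21), Slc4a4 (1.02), Atp8a2 (2.31) and Aqp5 (-2.17) were still called, with edgeR adjusted p of 0.0191 or less. Cftr also missed the threshold without Matrigel replicate 1 (0.66, adjusted p = 0.158) or 3 (0.72, adjusted p = 0.103), and Atp8a2 without Matrigel replicate 2 (1.34, adjusted p = 0.211).

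Around the 9 members, 197 other genes of epithelial transport were listed by hand in 9 families, of which 173 are in the table and 97 were tested. At day 13 against day 7 in collagen 71 of the 97 were called, 46 higher and 25 lower (73.2% beside 55.1% of all genes). The median log2 fold change was 0.39 beside -0.01. As this is the selecting comparison and the lists were made with earlier results of these data known, these shares are a description and no independent support. All 6 tested potassium channels other than Kcnn4 and all 4 tested aquaporins other than Aqp5 were higher at day 13. Their median log2 fold changes were 1.61 and 1.72. They were 6 of 28 listed potassium channels and 4 of 10 listed aquaporins. Some of them held few counts per library at day 7, such as Kcnq1 (2 to 7), Kcnk6 (2 to 7) and Aqp3 (2 to 6). Aqp3 passed the filter on low counts only through libraries of day 13, so that its call is no support. Of the members, Kcnn4 was lower at day 13 without overlap (log2 -0.39), and Aqp5 overlapped. Anion channels and exchangers moved both ways, with 16 of 29 higher and 8 lower, while of the pump's other subunits and FXYD proteins none of 3 was higher and 2 were lower, Atp1b3 (log2 -0.37) and Fxyd5 (-1.28). Atp1b1 and Fxyd3 differed at day 13 in the opposite direction to Atp1b3 and Fxyd5, but as members they are treated as chosen by this comparison, so nothing is read from the contrast.

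Among the listed genes with at least 10 CPM and no overlap, 4 rose most at day 13. Clca1, a secreted protein of goblet cells that modulates chloride currents, went from 219 to 3700 CPM (16.9-fold, log2 4.08, SE 0.17, edgeR adjusted p = 1.07e-14). Slc9a4, a sodium-proton exchanger, rose 16.2-fold (log2 4.01, SE 0.43), the anoctamin Ano7 15.3-fold (log2 3.94, SE 0.47) and Slc26a6, an apical chloride-bicarbonate exchanger, 14.4-fold (log2 3.84, SE 0.32), with adjusted p of 1.63e-07 or less. The 4 that fell most were Slc4a11 (log2 -2.29), Ttyh3 (-1.78), the kinase gene Sgk1 (-1.70) and the P4-ATPase gene Atp10a (-1.65), with adjusted p of 9.16e-06 or less. At day 7 Slc26a6 held 3 to 4 counts per library, Slc9a4 0 to 6 and Ano7 1 to 5, so that the sizes of these 3 folds are uncertain. These 3 genes passed the filter on low counts only through libraries of day 13, where they were high. Their calls are therefore no support. Ano1, the calcium-activated chloride channel, fell from 167 to 77.9 CPM (log2 -1.10); it lies outside the rule by which genes were named and was chosen after its values were seen.

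**Figure D3:**
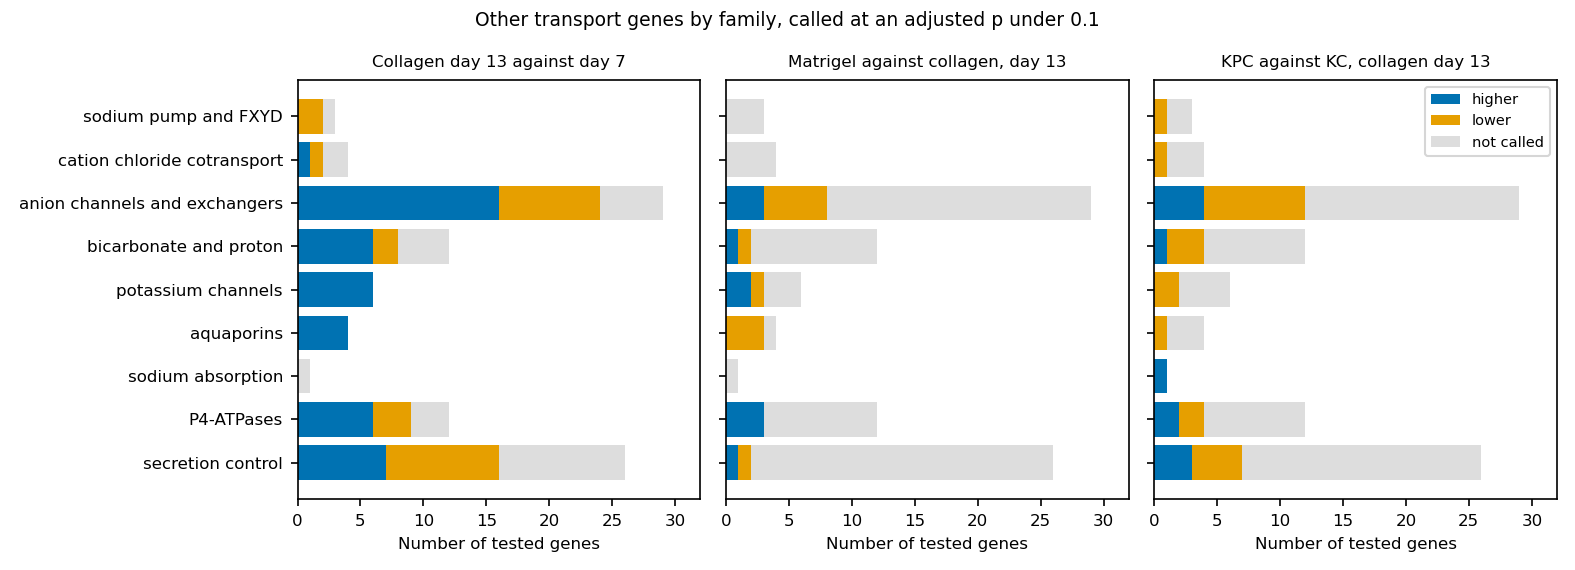
Number of tested genes (x axis) in each of the 9 transport families, without the 9 members, that were higher (blue), lower (orange) or not called (grey) at an adjusted p under 0.1 in 3 comparisons. All 6 of these potassium channels and all 4 of these aquaporins were higher at day 13 than at day 7, unlike the members Kcnn4 and Aqp5. Some of them held few counts at day 7. In KPC 22 of the 33 genes called were lower, a lean that turned (12 higher, 10 lower) when libraries were scaled by their size alone.

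In Matrigel against collagen, 21 of the 97 were called (21.6% beside 12.9% of all genes), 10 higher and 11 lower, with a median of -0.05. The P4-ATPase gene Atp10b (log2 3.16, SE 0.34), Slc4a11 (2.88, SE 0.29), Clca3b (2.86, SE 0.29) and the potassium channel gene Kcnq1 (2.66, SE 0.30) were higher in Matrigel, with edgeR adjusted p of 8.28e-07 or less. Slc26a6 (log2 -2.13, SE 0.26), the water channel gene Aqp8 (-1.51, SE 0.41), the carbonic anhydrase gene Car9 (-1.39, SE 0.22) and the potassium channel gene Kcnk5 (-1.002, SE 0.28) were lower, with adjusted p of 0.0214 or less, although Kcnk5 lost its call without Matrigel replicate 2 (-0.81, adjusted p = 0.144). The transcripts of Slc26a6 and Slc4a4 thus differed in opposite directions between Matrigel and first-batch collagen. Slc26a6 stood at 4.30 to 6.50 CPM in Matrigel and 17.2 to 31.9 CPM in first-batch collagen, while second-batch collagen held 9.01 to 13.2 CPM in KC and 3.81 to 9.45 CPM in KPC, the latter overlapping with Matrigel.

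Between the batches, the KC collagen condition of day 13 differed in 29 of the 97 genes (29.9% beside 37.3%), 17 higher and 12 lower in the second, but 9 higher and 15 lower with library size alone. The flippase gene Atp8b1 (log2 1.88), Aqp3 (1.65), Clic5 (1.54) and Kcnk6 (1.23) were higher and Slc26a6 (-1.15), Wnk4 (-0.97), Atp11a (-0.96) and Clic6 (-0.96) lower, with edgeR adjusted p from 3.63e-06 to 0.0438. Without second-batch replicate 2 the count fell to 17 genes, and Clic6 lost its call (-0.75, adjusted p = 0.202).

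KPC organoids differed from KC organoids in 33 of the 97 transport genes (34% beside 19.9% of all genes), 11 higher and 22 lower, with a median of -0.05 beside 0.01. The lean to lower genes depended on the scaling, since with libraries scaled by their size alone 22 were called, 12 higher and 10 lower. Clic6, an intracellular chloride channel gene, was 6.11-fold higher (log2 2.61, SE 0.34), Scnn1a, the alpha subunit of the epithelial sodium channel, 5.12-fold (log2 2.36, SE 0.47) over KC libraries with 3 to 4 counts, and Clic3 and Stk39, a kinase that activates NKCC1, were higher by 1.38 and 1.21 on the log2 scale, with edgeR adjusted p of 0.0023 or less. Scnn1a passed the filter on low counts only through the KPC libraries, where it was high, so that its call is no support. Aqp8 (log2 -1.66, SE 0.46), Kcnk6 (-1.54, SE 0.29), Car5b (-1.54, SE 0.32) and Clca1 (-1.32, SE 0.16) were lower, with adjusted p of 0.015 or less. Clca1 fell from 3220 ± 228 to 1285 ± 211 CPM (SD, n = 3 each), while Car2, which like it was higher at day 13 than at day 7, was at 837 ± 6.66 and 835 ± 80.8 CPM. In these libraries genotype and mouse cannot be told apart.

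**Figure D4:**
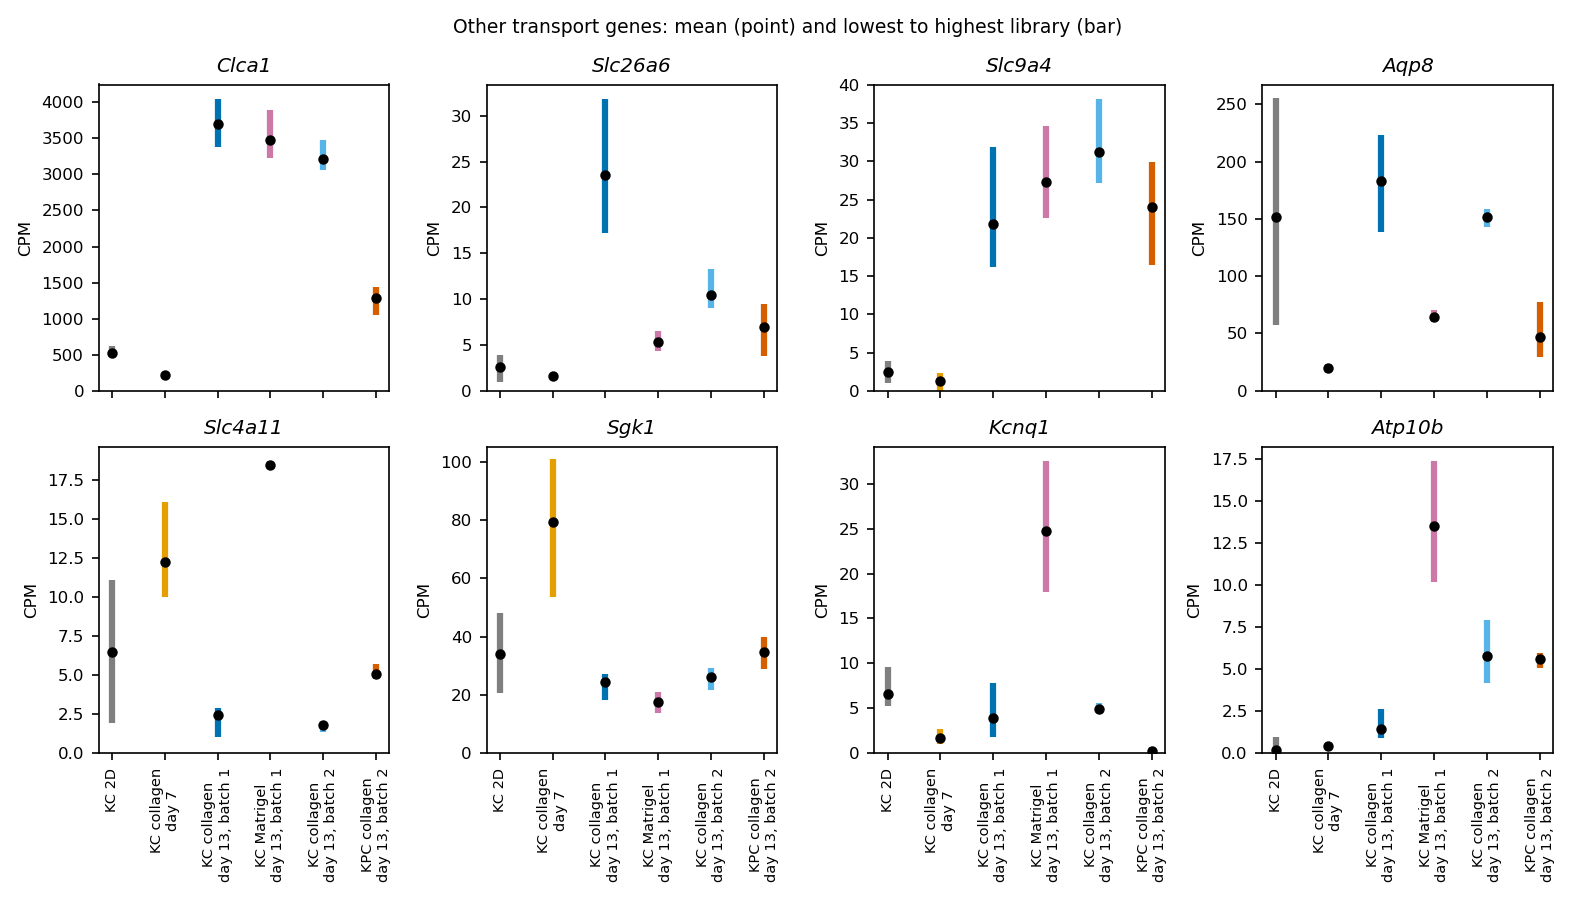
CPM (linear axes from 0) of 8 of the other transport genes in the 6 conditions; points are group means and bars run from the lowest to the highest library. Clca1 and Slc9a4 were low in 2D and at day 7 and high at day 13, Slc4a11, Kcnq1 and Atp10b were highest in Matrigel, and Aqp8 in 2D ran from 57.9 to 255 CPM with the 2 sets of 2D libraries apart.

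Matrigel organoids against 2D cells gave 50 calls among the 97 genes (51.5% beside 42%), 42 higher and 8 lower in Matrigel, with a median of 0.39 beside -0.02, 56 higher and 3 lower with library size alone, and 41 higher and 11 lower without 2D replicates 1 to 3. Clca3b (log2 4.06, SE 0.34), Slc9a4 (3.51, SE 0.35) and Clca1 (2.71, SE 0.13) were higher with edgeR adjusted p of 6.44e-08 or less, and Atp10b was at least 5.97-fold higher, since no 2D library passed 3 counts. Clca3b, Slc9a4 and Atp10b passed the filter on low counts only through libraries of day 13. The calls of these genes are therefore no support. Clns1a (log2 -0.72, SE 0.14), Car8 (-0.67, SE 0.19), Slc9a3r2 (-0.67, SE 0.14) and Atp1b3 (-0.36, SE 0.11) were lower, with adjusted p of 0.0151 or less. Of these, Car8, Slc9a3r2 and Atp1b3 were not called when libraries were scaled by their size alone (adjusted p from 0.123 to 0.704).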

How the data were processed

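The authors made 3'-end libraries with unique molecular identifiers (UMIs), aligned the reads to GRCm38 and, with the Drop-seq pipeline and the gene models of GENCODE M25, tallied UMIs by gene and sample. What they deposited are these counts, whole numbers for 27207 genes in 23 libraries with no normalization. Totals of 1221451 to 2471058 limit the precision of genes with few counts, and limits from counts cover counting error only.

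Counts were analysed in R 4.3.3 with edgeR 4.0.16: a filter on low counts by the 6 conditions (filterByExpr, 11144 genes left), TMM factors, and quasi-likelihood F-tests in one fit of all libraries. Genes with a Benjamini-Hochberg adjusted p under 0.1 over all tested genes were called. The 95% intervals take the fitted standard error as normal. CPM use TMM factors, and log2 CPM for correlations a prior count of 2. The scripts were tested on simulated data.

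The members and lists were chosen with earlier results of these data known. Named genes are the 9 members, in each comparison the listed transport genes with the largest rises (4) and falls (4) that were called without overlap and reached 10 CPM in a group, and for each member up to 3 most similar genes. Alternatives were DESeq2 1.42.0, its size factors, library size alone, no filter, a threshold of 0.05, the compared groups alone, the replicate number as a block, all 8 KC collagen libraries, and each library left out. Some alleles of the mice and some genes are not reported here. Positions come from GENCODE M21, promoters from RefSeq.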

Additional observations from a re-analysis of the deposited data

How the results depend on the processing

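Depth limits Cftr, Atp8a2 and Aqp5 most, and each condition has 3 to 6 libraries from 1 mouse a genotype. Of the recomputed differences of named genes, 1115 kept their direction and their side of the threshold, 21 lost and 19 gained a call and 18 changed sign. The causes of these changes were not tested. Scaling by library size alone shifted the median log2 fold change of all genes by 0.121 in KPC against KC, by 0.263 in Matrigel against 2D cells and by -0.135 between the batches, by 0.059 or less otherwise, and moved 8 group means of members by over 1 SD. It also turned Car2 (0.12) and Atp8a2 (0.0063) in KPC against KC, and gave 959 instead of 1439 genes in Matrigel against collagen (899 without Matrigel replicate 1).

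With only the 2 compared groups, 2 members were called in KPC against KC, and with all 8 KC collagen libraries also 2, where Car2 (0.27), Cftr (0.24), Fxyd3 (0.44) and Atp8a2 (0.11) turned positive. Against all 8 collagen libraries, Car2 (-0.0087) and Fxyd3 (-0.36) in Matrigel turned negative. Without 2D replicates 1 to 3, chosen after seeing the data, Slc12a2 (-0.15) and Kcnn4 (-0.075) turned negative in Matrigel against 2D cells.

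Deviations of same-numbered libraries from their group means correlated at -0.118 to 0.154. What paired libraries would give was not computed, so whether same-numbered libraries were paired was not tested. With the replicate block, 4 members were called in Matrigel against collagen, 0 in KPC against KC, 7 in Matrigel against 2D cells and 4 between the batches, with 22, 35, 48 and 26 transport genes, and 66 at day 13 against day 7. In Matrigel against collagen, Atp8a2 lost its call (-1.20, adjusted p = 0.12) and Atp1b1 gained one (0.0898). In Matrigel against 2D cells, Slc12a2 (0.0397) and Atp1b1 (0.0613) gained one and Fxyd3 turned to -0.074.

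With each library left out in turn, 2 (without Matrigel replicate 1) to 5 members were called in Matrigel against collagen, 4 to 6 in Matrigel against 2D cells, 3 to 4 between the batches and 0 in KPC against KC. The transport genes called between the batches were 17 (without second-batch replicate 2) to 32. Log2 fold changes that changed sign ranged from -0.028 to 0.37 for Aqp5 in Matrigel against collagen, from -0.0061 to 0.13 for Fxyd3 in Matrigel against 2D cells, from -0.13 to 0.024 for Kcnn4 between the batches, and in KPC against KC from -0.061 to 0.061 for Car2 and from -0.074 to 0.26 for Slc4a4.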

Other observations

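Of the other transport genes, Kcnq1, a potassium channel gene, was nearly absent from KPC, with 0 to 1 count per library against 7 to 8 counts in KC of the same batch. Slc4a11, a member of the bicarbonate transporter family, was at 18.2 to 18.8 CPM in Matrigel and 10.01 to 16.1 CPM at day 7, and at 1.04 to 2.86 CPM in first-batch collagen of day 13. Aqp8, a water channel, stood at 57.9 to 59.8 CPM in 2D replicates 1 to 3 and at 231 to 255 CPM in replicates 4 to 6. These values were picked after they were seen and carry no test here.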
